A study of Mus musculus with 9 samples.

Results

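The 41 genes described here are those of the amino acid starvation response and of the endoplasmic reticulum (ER) stress response, taken from a list of gene symbols by known function, drawn up with earlier results of these data known. Each was represented by its brightest probe set among those annotated to a single gene symbol, and all 41 had one, out of 18193 genes measured. They comprise 4 stress sensors, 9 transcription factors and regulators, 6 biosynthetic enzymes, 5 amino acid transporters, 4 further effectors of Atf4, Xbp1 with 9 ER chaperones and folding enzymes, and 3 factors of ER-associated degradation.

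Neuro2a, an established mouse neuroblastoma line, was treated for 48 h with siControl, with siMyT1 against the zinc finger transcription factor Myt1, or with siLSD1 against Kdm1a, which encodes LSD1, a demethylase of histone H3. Total RNA was extracted on columns, labelled with biotin and measured on 3 single-colour arrays for each treatment, 9 in all, and every group comes from this 1 tumour line. The study asked about Myt1 as a subunit of LSD1's complex in neural cells, and the comparisons set either knockdown against siControl and against each other. No label states whether replicates were grown separately, so the tests below weigh differences against the spread of these arrays, which may be technical, and the number of arrays limits their precision. Levels are deposited intensities, whose unit is unknown. Single genes are not ranked by level, but marker levels are summed and genes are set against the median level of all genes.

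Each target was low in the group labelled for it: Myt1 averaged 4.90 units in siControl, 0.661 in siMyT1 and 6.95 in siLSD1, and Kdm1a averaged 29.05, 30.9 and 4.49. Of 12 markers of the sympathoadrenal neuroblastoma lineage, 10 were measured, and 9 or 10 of them lay at or above the median level of all genes, 1.16 units, in each group. Their summed level was 195 to 212 units on the siControl arrays, 168 to 177 on the siMyT1 arrays and 210 to 234 on the siLSD1 arrays. The sum weighs the brightest markers most, Stmn2 and Hand2, which averaged 54.0 and 51.7 units in siControl. Of the 10, 3 fell after siMyT1, 4 rose and 1 fell after siLSD1, and 6 were lower in siMyT1 than in siLSD1. The summed level of 5 fibroblast markers was 1.32 to 1.84, 1.91 to 2.55 and 1.38 to 1.54 units in the same order, with only Dcn in siMyT1, at 1.29, above the gene median, and that of 3 leukocyte markers was 0.374 to 0.507, 0.287 to 0.48 and 0.245 to 0.441. The part of these marker shifts in the results below was not tested, and in bulk RNA fewer cells of a kind cannot be told apart from less RNA per cell.

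In the amino acid starvation response, uncharged tRNA activates the kinase Gcn2, encoded by Eif2ak4, which phosphorylates the translation factor eIF2. In ER stress the kinase Perk, encoded by Eif2ak3, does the same, and in both cases general translation falls while translation of Atf4 mRNA rises, so that Atf4 activity can change without a change of its transcript. Atf4, with partners such as Cebpg, switches on genes for amino acid synthesis, uptake and tRNA charging. The ER sensors Ern1 and Atf6, together with Xbp1, act beside Perk and raise ER chaperones and degradation factors, so that chaperones mark misfolding in the ER and Atf4 targets mark either stress.

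Elements known for either arm were searched in the promoters. The composite element of Atf4 with CCAAT-enhancer binding proteins was searched as TGATGNAA on both strands of RefSeq promoter windows of assembly GRCm38.p6, from 250 bases before to 50 bases after the start, where 38 members had 43 windows. It was found in windows of 8 members, Asns, Atf3, Chac1, Herpud1, Nupr1, Slc7a11, Trib3 and Vldlr, and in 3.97% of all 32851 windows. In Trib3 it lay after the start. The stretches of 6 of them are printed because Slc7a11, Atf3 and Herpud1 are among the called genes below while Asns, Chac1 and Nupr1 are not, and capitals mark the element. The Slc7a11 stretch holds it on both strands, and the others hold 1 match each.

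Slc7a11 (chr3:50443628-50443704, minus strand): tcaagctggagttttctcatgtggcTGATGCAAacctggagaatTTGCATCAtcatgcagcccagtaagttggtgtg
Atf3 (chr1:191183411-191183468, minus strand): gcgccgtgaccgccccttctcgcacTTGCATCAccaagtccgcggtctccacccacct
Herpud1 (chr8:94386292-94386349, plus strand): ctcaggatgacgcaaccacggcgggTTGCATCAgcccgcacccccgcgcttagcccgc
Asns (chr6:7693210-7693257, minus strand): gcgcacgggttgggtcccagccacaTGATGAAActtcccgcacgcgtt
Chac1 (chr2:119351024-119351081, plus strand): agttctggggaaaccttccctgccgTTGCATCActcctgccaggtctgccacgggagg
Nupr1 (chr7:126625548-126625605, minus strand): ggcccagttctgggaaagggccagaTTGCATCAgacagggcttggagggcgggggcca

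The ER stress element, CCAAT followed by any 9 bases and then CCACG, was found on either strand in windows of 5 members, Calr, Dnajc3, Hsp90b1, Hspa5 and Pdia6, and in 0.119% of all windows. None of these 5 members held the composite element, and none of the 8 above held the ER stress element, in these windows. Of 2 further motifs, TGACGTCA was found in the window of Ppp1r15a and in 1.79% of all windows, and TGACGTGG in 0 member windows and 0.676% of all windows. A match is a description of these letters and not a bound site, and no match says only that the letters are not in this window. Stretches of 4 chaperones are printed because they show the ER arm whose transcripts are compared with the Atf4 targets, with capitals for the element and its spacer.

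Hspa5 (chr2:34772000-34772068, plus strand): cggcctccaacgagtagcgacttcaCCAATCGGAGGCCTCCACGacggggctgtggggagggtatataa
Dnajc3 (chr14:118937802-118937870, plus strand): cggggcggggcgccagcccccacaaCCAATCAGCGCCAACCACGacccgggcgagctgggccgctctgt
Pdia6 (chr12:17266466-17266534, plus strand): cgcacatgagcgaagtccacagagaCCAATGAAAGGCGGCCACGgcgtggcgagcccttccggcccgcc
Calr (chr8:84847050-84847118, minus strand): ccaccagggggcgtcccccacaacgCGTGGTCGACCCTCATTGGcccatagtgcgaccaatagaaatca

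Against siControl, siMyT1 raised the serine synthesis enzyme Psph, the cystine transporter Slc7a11, the eIF2 phosphatase subunit Ppp1r15a and the degradation factor Edem1, and it lowered the transcription factors Atf5 and Cebpg and the co-chaperone Dnajc3. After siLSD1 the serine synthesis enzyme Psat1 fell and Edem1 rose. Set directly against siLSD1, siMyT1 was higher for 9 members, Psph, Psat1, Phgdh, Atf3, Ddit3, Ppp1r15a, Sesn2, Eif2ak4 and Herpud1, and lower for Cebpg. Neither Atf4 nor the main ER chaperone Hspa5 passed the test in any comparison. Here and below a gene is called when limma's two-sided test, with Benjamini-Hochberg adjustment across the 18193 genes, passed a threshold of 0.05, and differences are on the scale of log2(value + pseudocount).

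The share of members called was 17.1% after siMyT1 (7 of 41), where 7.41% of all genes were called, 5.12% as higher and 2.29% as lower. After siLSD1 it was 4.88% (2 of 41) against 8.9% of all genes, 3.97% higher and 4.93% lower. Between siMyT1 and siLSD1 it was 24.4% (10 of 41) against 18.8% of all genes, 13.2% higher and 5.58% lower. The members are bright genes, 40 of them at or above the gene median, and among the 9097 genes at or above it 13.1%, 16.5% and 32.6% were called in the same order. Genes at or above that median are termed bright genes below. Set beside them, the members were called at a share near theirs after siMyT1 and at lower shares in the other comparisons. Many members lie far above that cut, so the bright genes are not matched to them in level. No test of these shares was made. Their median differences, 0.06 after siMyT1, -0.03 after siLSD1 and 0.07 between the knockdowns, lay close to the medians of all genes, 0.05, -0.03 and 0.09. The siMyT1 and siLSD1 comparisons share the siControl arrays, so their values are given side by side only.

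The called sets are small and depend on scaling and on single arrays. Higher and lower calls among members numbered 4 and 3 after siMyT1, 1 and 1 after siLSD1, and 9 and 1 between the knockdowns. They were 7 and 3, 1 and 4, and 11 and 7 with quantile normalization, and 2 and 3, 1 and 0, and 3 and 4 with median centring. For all genes the same counts were 931 and 417, 722 and 897, and 2408 and 1015 as deposited, 1368 and 1092, 1425 and 1378, and 2410 and 1921 with quantile normalization, and 662 and 501, 1103 and 564, and 1248 and 1695 with median centring. Median centring moved the median of all genes by -0.04, 0.08 and -0.13. Members called after siMyT1 numbered 2 without siControl replicate 1 or 2, 4 without siControl replicate 3 or siMyT1 replicate 3, and 1 without siMyT1 replicate 2. After siLSD1 they numbered 0 without siControl replicate 1 or siLSD1 replicate 3 and 1 without any other array. In the full limma fit 7 members had an unadjusted p under 0.05 after siLSD1, where 21.1% of all genes did. Between the knockdowns the members called numbered 4 without siMyT1 replicate 2 and 5 without siMyT1 replicate 3 or siLSD1 replicate 2 or 3.

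**Figure D1:**
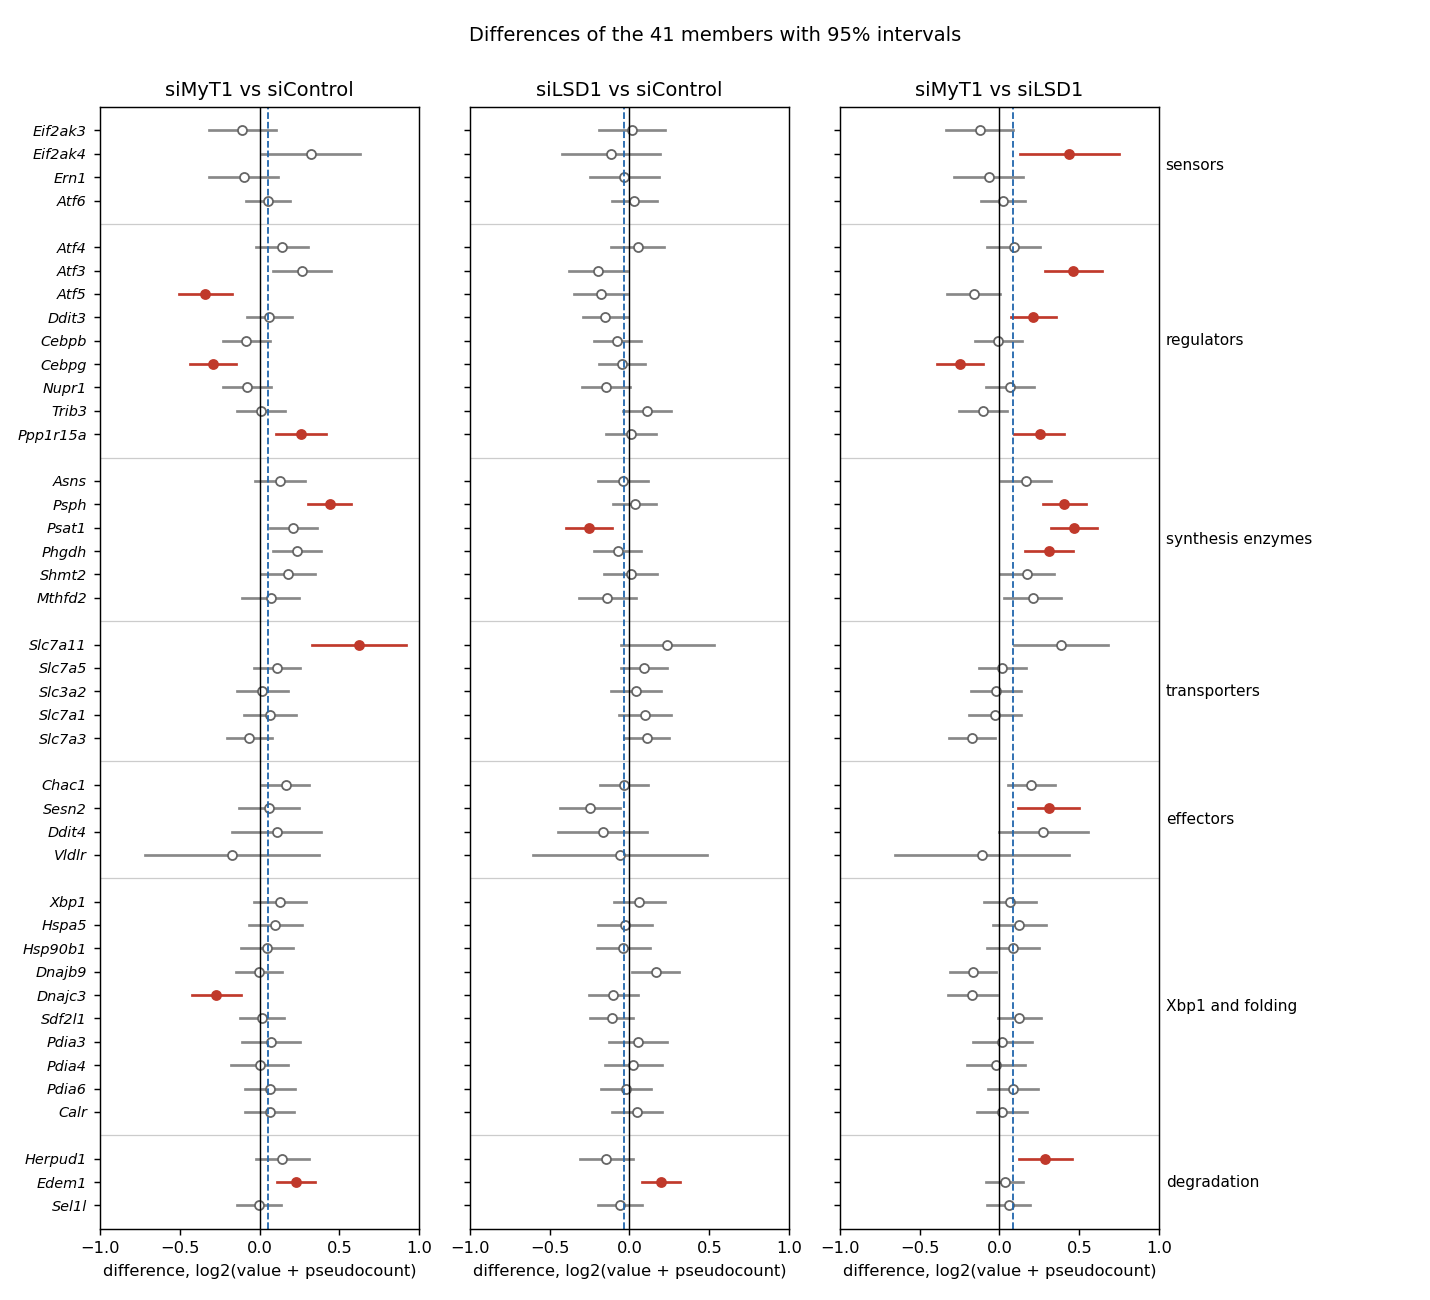
Differences of the 41 members on the log2(value + pseudocount) scale in 3 comparisons, with points for limma estimates, bars for 95% intervals, filled red points for called members, and a dashed line for the median of all genes. Most intervals cross 0, and the called members lie mostly among the regulators and the synthesis enzymes.

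For the chosen probe sets at the deposited scaling, the 95% interval of the difference on the log2(value + pseudocount) scale lay within 1.5-fold in either direction for 38 of 41 members after siMyT1, for 40 after siLSD1 and for 36 between the knockdowns. Those that reached beyond it were Eif2ak4, Slc7a11 and Vldlr after siMyT1, Vldlr after siLSD1, and Eif2ak4, Atf3, Psat1, Slc7a11 and Vldlr between the knockdowns. Vldlr, a lipoprotein receptor gene, was the 1 member below the gene median in all groups, at 0.0297 to 0.256 units over the arrays. Its 95% interval reached from -0.72 to 0.37 after siMyT1.

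Of the 4 stress sensors, Eif2ak4 was the 1 gene called at the deposited scaling. Eif2ak4, the Gcn2 kinase that senses uncharged tRNA, measured 1.90, 2.27 and 1.497 units on the siControl arrays, 2.19, 2.36 and 2.61 on the siMyT1 arrays and 1.86, 1.67 and 1.61 on the siLSD1 arrays. Every siMyT1 array was above every siLSD1 array, while siControl overlapped with both. The difference of siMyT1 from siLSD1 was 0.44 (SE 0.14, adjusted p = 0.0486), and from siControl 0.32 (adjusted p = 0.219). The call was lost without siMyT1 replicate 2 or 3 or any one siLSD1 array (adjusted p = 0.0633 to 0.17) and with either quantile normalization or median centring (0.0534 and 0.106). The Perk gene Eif2ak3, the ER kinase and nuclease gene Ern1 and Atf6 differed by -0.12 to 0.05 in the 3 comparisons, and 0 of these 3 had an unadjusted limma p under 0.05. With quantile normalization Eif2ak3 was called as lower in siMyT1 than in siLSD1 (-0.19, adjusted p = 0.0454).

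Among the 9 regulators, 1 rose and 2 fell after siMyT1, and 3 stood higher and 1 lower between the knockdowns. After siLSD1 0 were called, and 3 had an unadjusted limma p under 0.05, as did 21.1% of all genes. The shares called after siMyT1, after siLSD1 and between the knockdowns were 33.3%, 0% and 44.4%. They stand against 7.41%, 8.9% and 18.8% of all genes and 13.1%, 16.5% and 32.6% of bright genes. Atf4, the transcription factor at the head of the response, measured 99.5, 98.2 and 93.8 units in siControl, 102, 102 and 118 in siMyT1 and 107, 95.8 and 99.4 in siLSD1. On this probe set all siMyT1 arrays lay above all siControl arrays by a small margin, and siLSD1 overlapped with both. The differences were 0.14 after siMyT1 (SE 0.08, 95% interval -0.02 to 0.31, adjusted p = 0.334) and 0.05 after siLSD1 (SE 0.08, 95% interval -0.11 to 0.22, adjusted p = 0.796). Translation of Atf4 was not measured by these arrays.

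Atf3, a stress-induced factor of the same bZIP class with the composite element in its promoter, measured 11.8, 10.1 and 9.34 units in siControl, 12.1, 12.6 and 12.8 in siMyT1 and 9.24, 8.30 and 9.56 in siLSD1. It was highest in siMyT1 on every array, and siLSD1 overlapped with siControl. Between siMyT1 and siLSD1 it differed by 0.46 (SE 0.08, adjusted p = 0.00177), a call kept under all alternatives that were run. Against siControl, siMyT1 differed by 0.27 (adjusted p = 0.0757) and siLSD1 by -0.20 (adjusted p = 0.192), so neither knockdown passed alone, although siMyT1 did without siControl replicate 1 (0.0331).

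Ddit3, the factor also named Chop that links ER stress to cell death, measured 80.8, 79.7 and 77.2 units in siControl, 79.2, 82.0 and 86.7 in siMyT1 and 75.7, 68.1 and 70.3 in siLSD1. The siLSD1 arrays were the lowest, with no overlap with either other group, and siMyT1 overlapped with siControl. Between siMyT1 and siLSD1 the difference was 0.21 (SE 0.07, adjusted p = 0.0388), and after siLSD1 it was -0.15 (adjusted p = 0.201). The latter passed with quantile normalization (-0.16, adjusted p = 0.00505). The call between the knockdowns was lost without siMyT1 replicate 2 or 3 or siLSD1 replicate 2 or 3 (adjusted p = 0.103 to 0.133) and with median centring (0.686).

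Atf5, a paralogue of Atf4, fell after siMyT1, from 42.8, 48.7 and 38.6 units in siControl to 34.2, 33.0 and 35.1, while siLSD1 measured 39.5, 37.6 and 37.4. The siMyT1 arrays were the lowest of all, and siLSD1 overlapped with siControl. The difference was -0.34 (SE 0.08, adjusted p = 0.0183), or 78.6% of control on the mean levels. With siControl replicate 1, siControl replicate 2 or siMyT1 replicate 2 left out it was not called (adjusted p = 0.0538 to 0.0828). After siLSD1, Atf5 was called as lower with quantile normalization (-0.19, adjusted p = 0.045), though not at the deposited scaling. The same held between the knockdowns, where siMyT1 was lower than siLSD1 with quantile normalization (-0.19, adjusted p = 0.0315).

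Cebpg, a dimer partner of Atf4, also fell after siMyT1, from 19.9, 21.9 and 18.7 units in siControl to 16.1, 16.1 and 17.0, and measured 20.3, 18.8 and 19.3 in siLSD1. Its siMyT1 arrays were below all the others. The difference was -0.29 from siControl (SE 0.07, adjusted p = 0.0187) and -0.25 from siLSD1 (SE 0.07, adjusted p = 0.0194). Omitting siControl replicate 1, siControl replicate 2 or siMyT1 replicate 2 ended the first call (adjusted p = 0.0601 to 0.0751). The second was lost without siMyT1 replicate 2 or siLSD1 replicate 1 or 3 (0.0586 to 0.0723), and both were lost when the 3 probe sets of the gene were averaged (0.165 and 0.0809).

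Ppp1r15a, also named Gadd34, directs a phosphatase to eIF2 and ends the translational block. It measured 53.1, 54.6 and 52.0 units in siControl, 61.3, 63.0 and 67.1 in siMyT1 and 58.8, 48.8 and 53.5 in siLSD1. The siMyT1 arrays were the highest, and siLSD1 spread to both sides of siControl. The difference was 0.26 from siControl (SE 0.07, adjusted p = 0.0476) and 0.25 from siLSD1 (SE 0.07, adjusted p = 0.0281). The first was lost without any one of the 6 arrays compared (adjusted p = 0.0578 to 0.151) and the second without siMyT1 replicate 2 or 3 or siLSD1 replicate 2 or 3 (0.0752 to 0.0983), and with median centring they had adjusted p = 0.3 and 0.522. The other regulators, Cebpb, the chromatin protein gene Nupr1 and the pseudokinase gene Trib3, differed by -0.15 to 0.11 and were not called at the deposited scaling. With quantile normalization Trib3 was called as lower in siMyT1 than in siLSD1 (-0.12, adjusted p = 0.0358).

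**Figure D2:**
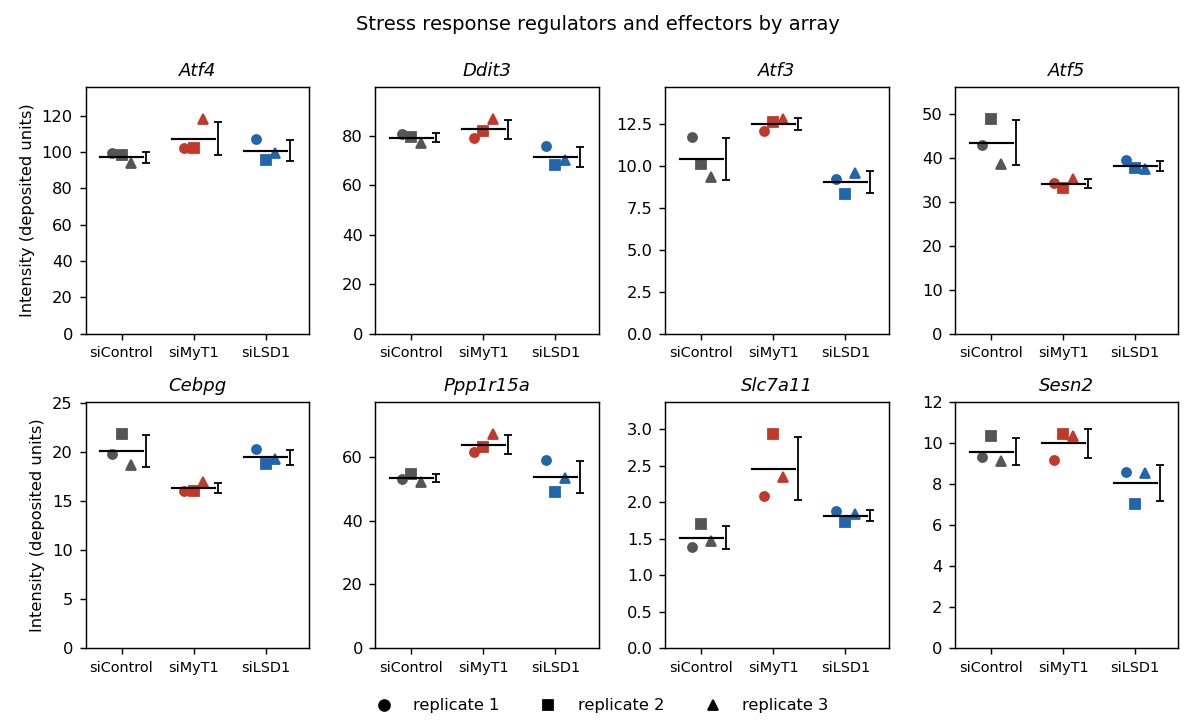
Deposited intensity of 6 regulators and of Slc7a11 and Sesn2 on each array by group, with symbols for replicates, horizontal lines for means and bars for 1 SD. Atf5 and Cebpg were lowest and Atf3, Ppp1r15a and Slc7a11 highest on all 3 siMyT1 arrays, while Atf4 differed little.

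The 6 enzymes that make serine, glycine, one-carbon units and asparagine had limma differences that were all positive after siMyT1, with a median of 0.20, and all positive between siMyT1 and siLSD1, with a median of 0.26, and the signs were the same with quantile normalization and with median centring. After siLSD1 the median was -0.06, and 4 were negative. Past the test, 1 rose after siMyT1, 1 fell after siLSD1 and 3 were higher in siMyT1 than in siLSD1. The shares called were thus 16.7%, 16.7% and 50% of the 6. They stand against 7.41%, 8.9% and 18.8% of all genes and 13.1%, 16.5% and 32.6% of bright genes. The medians of all genes were 0.05, -0.03 and 0.09 in the same order, and the signs over all genes were not counted.

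Psph, the phosphatase of the last step of serine synthesis, measured 33.0, 34.5 and 31.7 units in siControl, 42.5, 45.6 and 46.4 in siMyT1 and 35.1, 32.2 and 34.1 in siLSD1. The siMyT1 arrays stood clear of all the others, and siLSD1 overlapped with siControl. The difference was 0.44 from siControl (SE 0.06, 95% interval 0.30 to 0.57, adjusted p = 0.00103) and 0.40 from siLSD1 (SE 0.06, adjusted p = 0.000568), or 1.36-fold and 1.33-fold on the mean levels. Both were called under all alternatives that were run, including the omission of each array.

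Psat1, the aminotransferase of the middle step, measured 59.7, 60.6 and 54.9 units in siControl, 65.3, 67.7 and 69.9 in siMyT1 and 51.7, 45.8 and 49.4 in siLSD1. On this probe set the 3 groups did not overlap, with siMyT1 highest and siLSD1 lowest. Between siMyT1 and siLSD1 the difference was 0.47 (SE 0.07, adjusted p = 0.000361), called under all alternatives that were run. After siLSD1 it fell by 0.25 (SE 0.07, adjusted p = 0.0322), a call lost without siControl replicate 1 or 2 or siLSD1 replicate 2 or 3 (adjusted p = 0.0964 to 0.132) and with median centring (0.377). After siMyT1 it was 0.21 (adjusted p = 0.0785).

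Phgdh, the dehydrogenase of the first step, measured 75.2, 82.2 and 79.4 units in siControl, 87.8, 90.4 and 101 in siMyT1 and 76.6, 74.2 and 73.9 in siLSD1. The siMyT1 arrays were above all the others, and siLSD1 overlapped with siControl. It was 0.31 higher in siMyT1 than in siLSD1 (SE 0.07, adjusted p = 0.007), which was not called with median centring (0.349), and 0.24 above siControl (adjusted p = 0.0597), which was called with quantile normalization (0.0099). Its 4 probe sets are all of a kind that may hybridise to several transcripts.

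The mitochondrial one-carbon enzymes Shmt2 and Mthfd2 and the asparagine synthetase gene Asns were not called in the main fit. Their differences between siMyT1 and siLSD1 were 0.17, 0.21 and 0.17 (adjusted p = 0.153, 0.104 and 0.142). Mthfd2 and Asns passed with quantile normalization (0.0398 and 0.0118), with dim genes left out (0.0209 and 0.0436) and with array weights (0.0491 and 0.0425). Shmt2 passed with array weights (0.0304). All 6 enzymes had an unadjusted limma p under 0.05 in that comparison, where 30.3% of all genes did. On siMyT1 replicate 3 the values were the highest of all 9 arrays for Asns, Phgdh, Shmt2, Mthfd2, Psat1 and Psph.

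**Figure D3:**
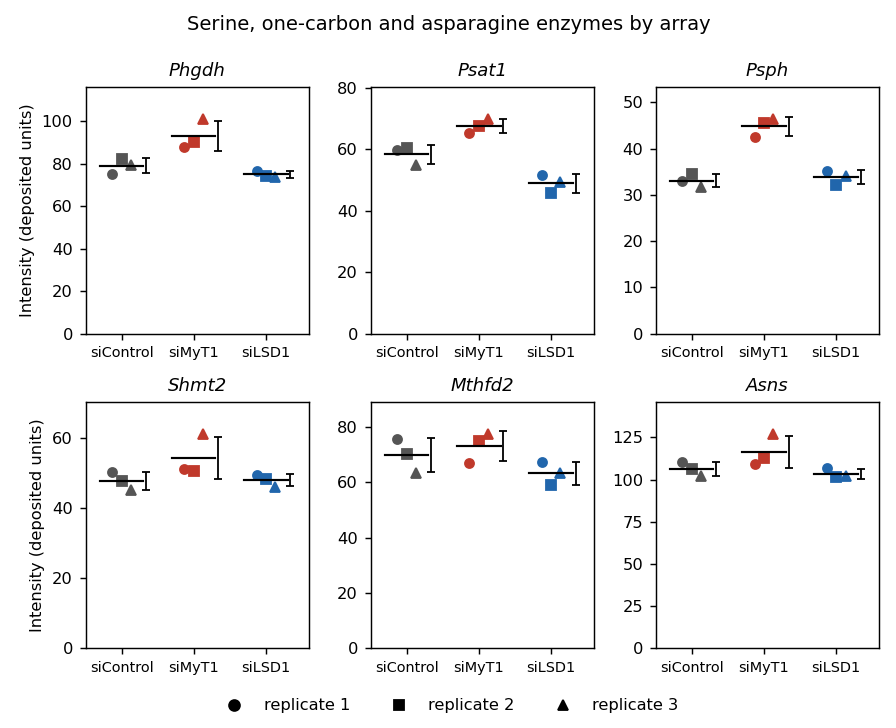
Deposited intensity of the 6 synthesis enzymes on each array by group, with symbols for replicates, horizontal lines for means and bars for 1 SD. All siMyT1 arrays lie above all siLSD1 arrays in each panel except Mthfd2, narrowly for Asns and Shmt2, and siMyT1 replicate 3 is the highest array in each panel.

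Of the 5 amino acid transporters, only Slc7a11 was called in the fit of values as deposited. Slc7a11, the cystine and glutamate exchanger that feeds glutathione synthesis and whose promoter carries the composite element on both strands, measured 1.39, 1.70 and 1.46 units in siControl, 2.09, 2.94 and 2.35 in siMyT1 and 1.88, 1.73 and 1.84 in siLSD1. The 3 groups did not overlap, and siMyT1 was highest and siControl lowest. It rose after siMyT1 by 0.62 (SE 0.14, 95% interval 0.33 to 0.92, adjusted p = 0.015), the largest estimate among the members, and differed by 0.24 after siLSD1 (adjusted p = 0.362). Omitting siControl replicate 1, siControl replicate 3 or siMyT1 replicate 2 ended the call (adjusted p = 0.0532 to 0.066), as did averaging its 2 probe sets (0.068).

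The heterodimer genes Slc7a5 and Slc3a2, which import large neutral amino acids, and the cationic amino acid transporter genes Slc7a1 and Slc7a3 differed by -0.06 to 0.11 after siMyT1 and by 0.04 to 0.11 after siLSD1, and were not called. Slc7a3 was lower in siMyT1 than in siLSD1 by 0.17 (adjusted p = 0.0941), and this passed with quantile normalization (0.00576) and with median centring (0.0312).

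Among the other effectors, Sesn2, a leucine sensor that restrains the growth kinase mTORC1, was called. It measured 9.30, 10.3 and 9.13 units in siControl, 9.19, 10.4 and 10.4 in siMyT1 and 8.57, 7.05 and 8.56 in siLSD1. The siLSD1 arrays were the lowest, and siMyT1 overlapped with siControl. The difference between siMyT1 and siLSD1 was 0.31 (SE 0.09, adjusted p = 0.0258), and that of siLSD1 from siControl was -0.25 (adjusted p = 0.105). The second passed with quantile normalization (0.0134) and with dim genes left out (0.0353). The first was lost without siMyT1 replicate 2 or 3 or siLSD1 replicate 2 (adjusted p = 0.0949 to 0.102), with median centring (0.216) and when its 2 probe sets were averaged (0.252).

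Chac1, which degrades glutathione, was 0.20 higher in siMyT1 than in siLSD1 (adjusted p = 0.06), and this passed with quantile normalization (0.00229) but not with median centring (0.681). Ddit4, an inhibitor of mTORC1, measured 35.7 units on siLSD1 replicate 2 and 52.5 to 59.1 on the other 8 arrays. Its difference between the knockdowns was 0.28 (adjusted p = 0.167). It passed with dim genes left out (0.0177) and, at 0.40, with siLSD1 replicate 1 left out (0.0439), both of which keep the low array. Without siLSD1 replicate 2 it was not called, and the siLSD1 arrays that remain measured 56.7 and 53.2 units.

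Xbp1 and the 9 ER chaperones and folding enzymes held 1 call in all 3 comparisons together, that of Dnajc3 after siMyT1. None was called after siLSD1, where 1 had an unadjusted limma p under 0.05, or between the knockdowns, where 2 did. Such a p was found for 21.1% and 30.3% of all genes. The shares called were 10%, 0% and 0%, against 7.41%, 8.9% and 18.8% of all genes and 13.1%, 16.5% and 32.6% of bright genes. The 95% intervals lay within 1.25-fold for 9 of the 10 genes after siMyT1 and for all 10 after siLSD1 and between the knockdowns. This holds for the chosen probe sets at the deposited scaling: with median centring Dnajb9 and Dnajc3 differed by -0.29 each between the knockdowns, and another Dnajc3 probe set differed by 0.34 there (adjusted p = 0.0503), opposite in sign to the chosen one.

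Hspa5, the ER chaperone BiP that binds unfolded proteins and holds the sensors inactive, measured 145, 142 and 129.7 units in siControl, 141, 146 and 159.7 in siMyT1 and 144, 133 and 133 in siLSD1. The groups overlapped. The differences were 0.10 after siMyT1 (SE 0.08, 95% interval -0.07 to 0.26, adjusted p = 0.551) and -0.03 after siLSD1 (SE 0.08, 95% interval -0.19 to 0.14, adjusted p = 0.902).

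Xbp1, the factor whose mRNA is spliced by the Ern1 product, measured 74.6, 77.5 and 74.1 units in siControl, 79.6, 81.0 and 86.7 in siMyT1 and 86.2, 71.5 and 79.2 in siLSD1. The siMyT1 arrays lay above the siControl arrays, and siLSD1 overlapped with both. The differences were 0.13 after siMyT1 (adjusted p = 0.382) and 0.06 after siLSD1 (adjusted p = 0.731). These intensities give the total transcript and not its spliced share.

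Dnajc3, the ER co-chaperone also named p58IPK, fell after siMyT1, from 12.8, 14.9 and 12.6 units in siControl to 10.97, 11.7 and 10.6, and measured 12.6, 12.4 and 12.5 in siLSD1. Its siMyT1 arrays were the lowest of all. The difference was -0.27 (SE 0.07, adjusted p = 0.0358). It was not called without siControl replicate 1 or 2 or any one siMyT1 array (adjusted p = 0.0563 to 0.131), or when its 5 probe sets were averaged (0.495).

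The remaining folding genes, Hsp90b1, Dnajb9, Sdf2l1, Pdia3, Pdia4, Pdia6 and the calreticulin gene Calr, differed by -0.002 to 0.07 after siMyT1 and by -0.11 to 0.16 after siLSD1. Dnajb9, an ER J-domain co-chaperone, measured 35.0, 39.5 and 33.2 units in siControl, 34.9, 36.5 and 35.8 in siMyT1 and 40.9, 39.5 and 39.8 in siLSD1. The siLSD1 arrays were the highest by a narrow margin, with a difference of 0.16 from siControl (adjusted p = 0.175). Between the knockdowns Dnajb9 and Dnajc3 were lower in siMyT1 by 0.17 each (adjusted p = 0.112 and 0.124) and passed with median centring (0.0359 and 0.0197) and with quantile normalization (0.0144 and 0.015).

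Among the 3 factors of ER-associated degradation, Edem1, a mannosidase-like protein that hands misfolded glycoproteins to degradation, was called after both knockdowns. It measured 14.3, 13.95 and 13.9 units in siControl, 16.0, 17.1 and 16.3 in siMyT1 and 16.4, 15.7 and 16.2 in siLSD1. All arrays of both knockdowns lay above all siControl arrays, and the knockdowns overlapped. The difference was 0.23 after siMyT1 (SE 0.05, adjusted p = 0.0233) and 0.20 after siLSD1 (SE 0.05, adjusted p = 0.0407), both against the same control arrays. The first was lost without any one siControl array or siMyT1 replicate 2 or 3 (adjusted p = 0.0552 to 0.0961), and the second without any one siControl array or siLSD1 replicate 1 or 3 (0.0926 to 0.148). With the 2 probe sets of Edem1 averaged they had adjusted p = 0.172 and 0.852.

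Herpud1, an ER membrane protein of the degradation complex that has the composite element in its promoter, measured 51.1, 48.5 and 49.1 units in siControl, 48.5, 57.3 and 59.0 in siMyT1 and 47.6, 43.3 and 43.6 in siLSD1. Every siLSD1 array was below the other groups, which overlapped. The difference between siMyT1 and siLSD1 was 0.29 (SE 0.08, adjusted p = 0.0184). It was lost without siMyT1 replicate 2 or 3 or siLSD1 replicate 2 or 3 (adjusted p = 0.0563 to 0.087) and with median centring (0.309). Sel1l, the adaptor of the degradation ligase, differed by -0.06 to 0.06.

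**Figure D4:**
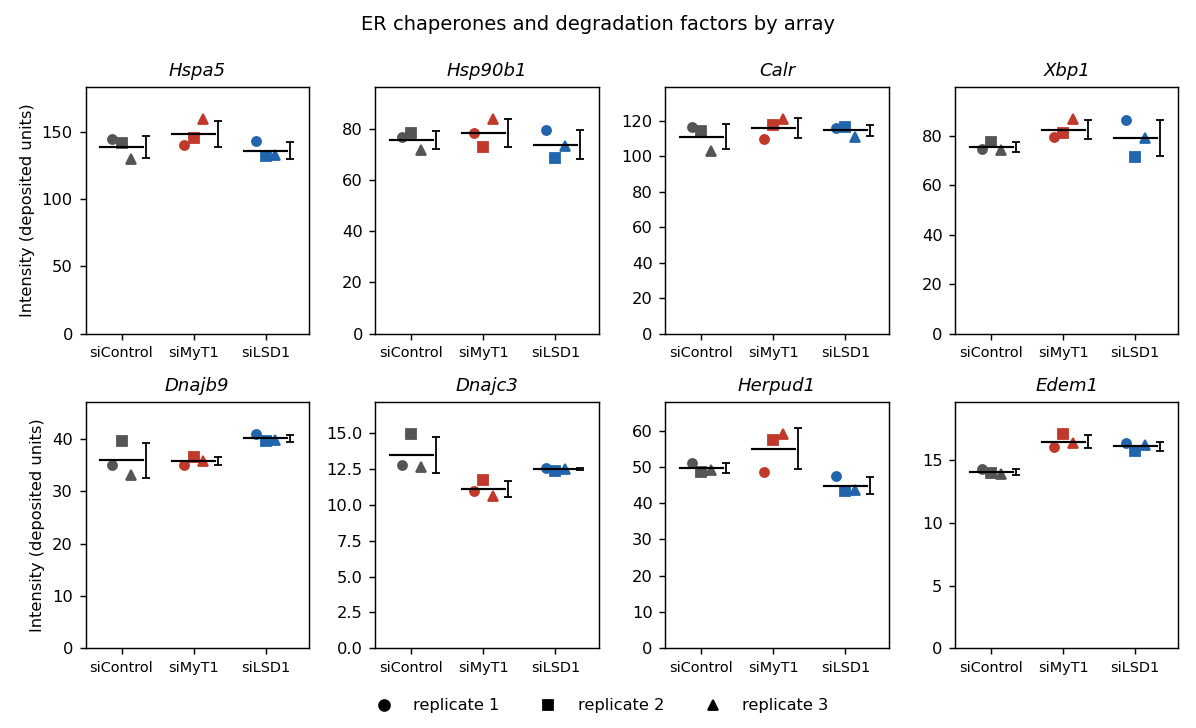
Deposited intensity of Xbp1, 5 ER chaperone genes and the degradation factors Herpud1 and Edem1 on each array by group, with symbols for replicates, horizontal lines for means and bars for 1 SD. Hspa5, Hsp90b1 and Calr overlap between groups, Dnajc3 is lowest in siMyT1, and Edem1 is higher in both knockdowns.

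The 23 Atf4 targets and partners, Atf4 itself left out, were set beside the 12 ER chaperone and degradation genes. After siMyT1, 3 of the 23 rose and 2 fell with a median of 0.07, and 1 of the 12 rose and 1 fell with a median of 0.05. After siLSD1, 0 of the 23 rose and 1 fell with a median of -0.05, and 1 of the 12 rose and 0 fell with a median of -0.03. The number with an unadjusted limma p under 0.05 was then 5 of 23 and 2 of 12, against 21.1% of all genes. Between siMyT1 and siLSD1, 7 of the 23 were higher and 1 lower with a median of 0.17, and 1 of the 12 was higher and 0 lower with a median of 0.05, where the median of all genes was 0.09. The shares called were 21.7%, 4.35% and 34.8% of the 23 in the 3 comparisons, and 16.7%, 8.33% and 8.33% of the 12. Of all genes 7.41%, 8.9% and 18.8% were called, and of those at or above the median level 13.1%, 16.5% and 32.6%. Between the knockdowns the share of the 23 was thus near that of genes at or above the median level. The 95% intervals lay within 1.25-fold for 10, 12 and 11 of the 12 ER genes in the 3 comparisons, and for 12, 16 and 7 of the 23. The difference between both lists was not tested.

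By array, the median of the Atf4 list relative to the siControl mean was 0.04, 0.08 and 0.16 on siMyT1 replicates 1 to 3 and 0.02, -0.09 and -0.06 on siLSD1. The ER list gave -0.02, 0.01 and 0.15 and then 0.07, -0.09 and -0.03. Both lists were highest on siMyT1 replicate 3, where the median of all genes was 0.07. On siMyT1 replicates 1 and 2 the median of all genes was -0.04 and 0.12, the latter above both lists, and on both arrays the Atf4 list was the higher of the 2 lists. The siControl arrays themselves ranged from -0.07 to 0.06 for the Atf4 list.

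**Figure D5:**
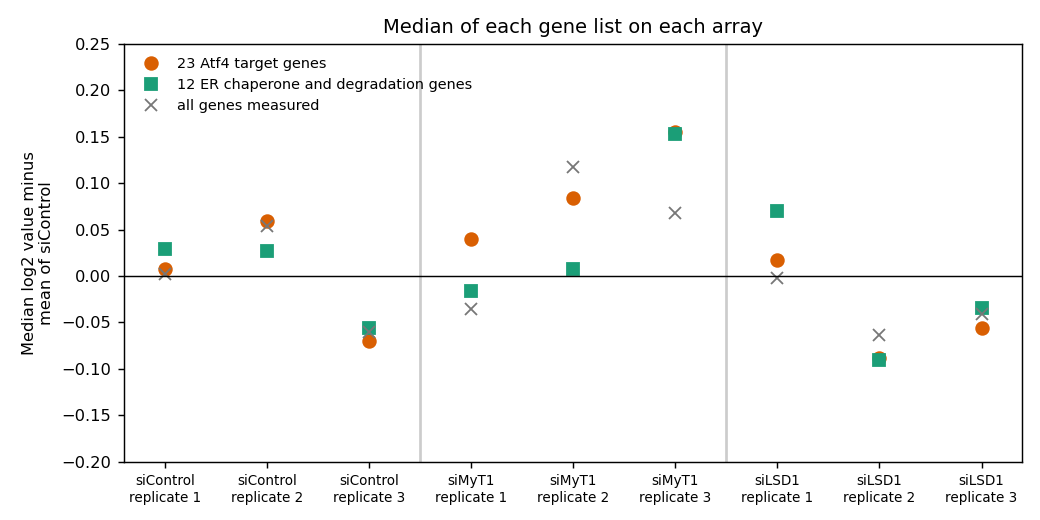
Median over each gene list of the log2(value + pseudocount) minus the siControl mean, for each of 9 arrays, with 23 Atf4 targets, 12 ER chaperone and degradation genes, and all 18193 genes. Both lists reach about 0.15 on siMyT1 replicate 3, and the other points lie between -0.09 and 0.12.

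The 41 members had 97 probe sets, and 30 members had more than 1. In a fit of all 34945 probe sets with a single symbol, the dimmer probe sets of Psat1 and Herpud1 were called in the same direction as the brightest between siMyT1 and siLSD1, at 0.40 (adjusted p = 0.00265) and 0.34 (0.00749), and all 4 of Phgdh were called, at 0.26 to 0.42. The other Psat1 probe set also fell after siLSD1, by 0.35 (adjusted p = 0.00965). After siMyT1 that Psat1 probe set differed by only 0.04 (0.832), against 0.21 for the brightest. The dimmer Mthfd2 probe set was called between the knockdowns at 0.31 (adjusted p = 0.0309), where the brightest was not. Probe sets disagreed for Cebpg, of which another fell after siLSD1 by 0.28 (adjusted p = 0.0206) and differed by -0.13 after siMyT1 (0.317). Between the knockdowns that Cebpg probe set differed by 0.15 (0.159), opposite in sign to the called one at -0.25. The dimmest, at 0.718 units, differed there by -0.48 (0.0768). In this fit 4 member calls were lost on the chosen probe set itself, those of Ppp1r15a (adjusted p = 0.0722) and Dnajc3 (0.0575) after siMyT1, Edem1 after siLSD1 (0.0571) and Eif2ak4 between the knockdowns (0.0573). The 4 other Dnajc3 probe sets differed by -0.34 to 0.09 after siMyT1 and by -0.39 to 0.34 between the knockdowns, with none called. For Edem1 the other probe set differed by -0.13 after siLSD1 (adjusted p = 0.386), and for Sesn2 by 0.02 between the knockdowns (0.925). One of the 2 dimmer Atf6 probe sets fell after siLSD1 by 0.39 (adjusted p = 0.0339) and was higher in siMyT1 than in siLSD1 by 0.45 (0.00959), against 0.03 and 0.02 for the brightest. After siMyT1, another Atf4 probe set differed by -0.30 (adjusted p = 0.268), opposite in sign to the brightest at 0.14. A further one, at 0.047 units, differed by 0.27 (0.399). The dimmer Hspa5 probe sets differed by -0.11 and -0.34 (adjusted p = 0.461 and 0.162), against 0.10 for the brightest. The annotation does not say which transcripts these probe sets tell apart.

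Other genes of the pathway were taken from lists that the members do not overlap with. Of 23 measured genes of 25 further amino acid starvation genes, 1 rose after siMyT1 and 0 fell, 0 rose and 5 fell after siLSD1, and 8 stood higher in siMyT1 than in siLSD1 and 0 lower. These are 4.35%, 21.7% and 34.8% of the list, against 7.41%, 8.9% and 18.8% of all genes and 13.1%, 16.5% and 32.6% of genes at or above the median level, so the last share is near that of bright genes. Got1, the cytosolic aspartate aminotransferase, averaged 40.2 units in siControl, 43.4 in siMyT1 and 25.3 in siLSD1. It fell after siLSD1 by 0.67 (SE 0.07, adjusted p = 6.46e-05). Aldh18a1, which starts proline synthesis from glutamate, averaged 34.3, 36.1 and 22.4 units and fell after siLSD1 by 0.61 (SE 0.07, adjusted p = 9.58e-05). Cth, which makes cysteine, averaged 29.6, 41.9 and 31.6 units and rose after siMyT1 by 0.50 (SE 0.07, adjusted p = 0.000607). These 3 calls were kept under all alternatives that were run. Gpt2, an alanine aminotransferase, was higher in siMyT1 than in siLSD1 by 0.41 (adjusted p = 0.000288).

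Of 19 measured cytosolic aminoacyl-tRNA synthetase genes of 20, which charge tRNA and many of which are Atf4 targets, 4 rose and 1 fell after siMyT1, 0 were called after siLSD1, where 5 had an unadjusted limma p under 0.05, and 1 was higher and 1 lower between the knockdowns. The shares called, 26.3%, 0% and 10.5%, stand against 7.41%, 8.9% and 18.8% of all genes and 13.1%, 16.5% and 32.6% of bright genes. An unadjusted limma p under 0.05 after siLSD1 was found for 21.1% of all genes. Qars, for glutamine, rose after siMyT1 by 0.34 (SE 0.06, adjusted p = 0.00605), which was lost with median centring (0.0521) and when its probe sets were averaged (0.862). Nars and Farsb rose by 0.26 and 0.31 (adjusted p = 0.0273 and 0.0462) and Yars fell by 0.26 (0.0406). Farsb was lost without any one of the 6 arrays compared (adjusted p = 0.0582 to 0.178), Nars without any but siMyT1 replicate 1 (0.0605 to 0.105) and Yars without any but siMyT1 replicate 3 (0.065 to 0.138). With median centring all 3 were lost (0.19, 0.267 and 0.0896 for Farsb, Nars and Yars).

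Of 12 measured genes of 13 for eIF2, its exchange factor eIF2B and further eIF2 kinases and regulators, 1 rose and 1 fell after siMyT1, 0 were called after siLSD1, where 4 had an unadjusted limma p under 0.05, and 3 were higher in siMyT1 than in siLSD1. The shares called were 16.7%, 0% and 25%, against 7.41%, 8.9% and 18.8% of all genes and 13.1%, 16.5% and 32.6% of bright genes. Of all genes, 21.1% had an unadjusted limma p under 0.05 after siLSD1. Eif2ak2, the kinase Pkr that senses double-stranded RNA, averaged 1.38 units in siControl, 1.98 in siMyT1 and 1.16 in siLSD1. It was higher in siMyT1 than in siLSD1 by 0.69 (SE 0.13, adjusted p = 0.00234). Eif2b1, a subunit of eIF2B, fell after siMyT1 by 0.46 (SE 0.10, adjusted p = 0.0128), a call lost without siControl replicate 1 or siMyT1 replicate 2 (adjusted p = 0.0505 and 0.0607). The eIF2 subunit genes Eif2s3x and Eif2s2 were higher in siMyT1 than in siLSD1 by 0.25 and 0.24 (adjusted p = 0.0264 and 0.0289), which ended with median centring (0.48 and 0.589) and without siMyT1 replicate 2 or 3 or siLSD1 replicate 2 or 3 (0.0705 to 0.0983).

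Of 29 measured genes of 30 further genes of ER folding and the unfolded protein response, 2 rose and 2 fell after siMyT1. After siLSD1 3 rose and 0 fell, and between the knockdowns 2 stood higher and 4 lower in siMyT1. The list includes Bag3, whose product is cytosolic and which is 1 of those 3 rises and 1 of those 4 lower genes. The shares called were 13.8%, 10.3% and 20.7%. The first was near that of bright genes, 13.1%, and above that of all genes, 7.41%. The others were near those of all genes, 8.9% and 18.8%, and below those of bright genes, 16.5% and 32.6%. Creb3l2, an ER-anchored transcription factor cleaved under secretory load, averaged 4.98 units in siControl, 6.20 in siMyT1 and 9.77 in siLSD1, and rose after siLSD1 by 0.95 (SE 0.08, adjusted p = 1.01e-05). Bag3, a cytosolic co-chaperone of Hsp70 in selective autophagy, averaged 15.9, 14.2 and 23.5 units and rose after siLSD1 by 0.56 (SE 0.07, adjusted p = 0.000342). Both rises were kept under all alternatives that were run. Sec24d, a coat protein of ER exit vesicles, averaged 6.42, 9.56 and 6.27 units and was higher in siMyT1 than in siLSD1 by 0.59 (SE 0.12, adjusted p = 0.00473). Ssr2, a subunit of the translocon-associated complex, was lower in siMyT1 than in siLSD1 by 0.36 (a difference of -0.36, SE 0.06, adjusted p = 0.00103).

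Of 15 measured genes of 16 further ER degradation genes, 1 rose after siMyT1, 2 rose after siLSD1, and 1 was higher and 3 lower in siMyT1 than in siLSD1. The shares called were 6.67%, 13.3% and 26.7%, below those of bright genes, 13.1%, 16.5% and 32.6%. The first was near that of all genes, 7.41%, and the others were above those of all genes, 8.9% and 18.8%. Os9, a lectin of the degradation complex, averaged 8.88 units in siControl, 7.85 in siMyT1 and 10.9 in siLSD1. It differed by -0.47 between siMyT1 and siLSD1 (SE 0.07, adjusted p = 0.000317). Derl1, of the retrotranslocation channel, and Syvn1, the degradation ligase, differed by -0.30 and -0.27 in that comparison (adjusted p = 0.00851 and 0.0189). The Syvn1 call was lost without siMyT1 replicate 1 or siLSD1 replicate 2 or 3 (adjusted p = 0.0519 to 0.0603). Edem2 rose after siLSD1 by 0.27 (adjusted p = 0.0375), which was lost without any one siControl array or siLSD1 replicate 1 or 3 (0.0836 to 0.144).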

How the data were processed

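RNA of 9 Neuro2a samples was hybridised to 1-colour arrays. The deposited table holds 1 linear intensity per probe set, 45101 in all; how it was summarised, background-corrected and scaled is not given in the sources used here. Array medians lay between 0.302 and 0.424 units. Of the probe sets, 34945 had 1 gene symbol in the platform annotation, and each gene was taken from its brightest one over all arrays. Values were multiplied by 1 constant, 164, which sets the mean intensity, trimmed by 2% at each end, to 500 on average, and analysed as log2(value + 32), so that differences of dim genes are understated. A model of group means over 9 arrays with an intensity trend was fitted in limma 3.58.1 (R 4.3.3), two-sided, with Benjamini-Hochberg adjustment over all genes, and tested on simulated data. The members and lists were chosen with earlier results of these data known. Values on every array are given for called members and for Atf4, Ddit3, Hspa5 and Xbp1; of each further list, up to 4 genes with the smallest adjusted p are named. Alternatives covered scaling, pseudocount, dim genes, probe sets, variance model, array weights, a replicate block and the omission of each array.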

Additional observations from a re-analysis of the deposited data

How the results depend on the processing

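No member call reversed its direction under any alternative that was run. Of 19 member calls, 4 were kept under all of them (Psph after siMyT1, and Psph, Psat1 and Atf3 between siMyT1 and siLSD1), and 14 were lost on leaving out some single array. Members called after siMyT1, 7 as reported, numbered 3 with all probe sets averaged and 2 without an intensity trend. After siLSD1, 2 as reported, they numbered 5 with quantile normalization, 1 with median centring, 1 with a pseudocount of 1, 1 with probe sets averaged, and 0 with the compared groups alone or without an intensity trend. Between siMyT1 and siLSD1, 10 as reported, they numbered 18 with quantile normalization, 6 with probe sets averaged and 4 without an intensity trend. Leaving out 1 array gave 1 to 5, 0 to 1 and 4 to 12 members in the same order.

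For all genes after siMyT1, 1348 as reported, 2460 were called with quantile normalization, 862 with probe sets averaged, 765 without an intensity trend and 650 to 1450 on leaving out 1 array. After siLSD1, 1619 as reported, the counts were 2803 with quantile normalization, 1079 with probe sets averaged, 2966 with array weights and 965 to 1318 on leaving out 1 array. Between the knockdowns, 3423 as reported, leaving out 1 array gave 2331 to 3705. The causes were not tested.

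The replicate numbers did not pair the arrays: deviations of same-numbered arrays of different groups correlated at -0.03 to 0.04, and those of other pairs at -0.04 to 0.05. With the number as a block, 4, 0 and 7 members and 935, 1259 and 2927 genes were called in the 3 comparisons.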
